A study of Mus musculus with 6 samples.

Results

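The neurotrophins are small secreted growth factors, and 7 genes of their system were followed in ribosome-bound RNA enriched for that of lung pericytes. Bdnf, Ntf3 and Ntf5 encode ligands, Ntrk2 and Ntrk3 encode the receptor tyrosine kinases TrkB and TrkC, Ngfr encodes the p75 neurotrophin receptor (p75NTR), and Sort1 encodes the sorting receptor sortilin. The family was selected because Ngfr was strongly raised in mutant samples, so the mutant and control values of Ngfr are given as a description without a test. The other 6 genes entered as relatives of Ngfr. All 7 were matched by Ensembl identifier to the GENCODE M21 annotation and were present among the 21603 genes measured in each sample.

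RNA came from P8 mouse lung of strain C57BL/6, with 3 control and 3 Yap1,Wwtr1 iPCKO (inducible pericyte-specific knockout) samples. Both groups carried Pdgfrb(BAC)-CreERT2, a tamoxifen-inducible recombinase expressed in pericytes, both carried a single loxP-flanked Rpl22 allele that adds an HA tag to a ribosomal protein after recombination (RiboTag), and both received tamoxifen from P0 to P2. The mutants were Yap1 lox/lox Wwtr1 lox/lox and the controls Yap1 lox/+ Wwtr1 lox/+, labelled Yap1-/-;Wwtr1-/- and Yap1+/-;Wwtr1+/-, so the controls had lost 1 copy of each gene in recombined cells. Yap1 and Wwtr1 encode YAP1 and TAZ, coactivators of TEAD transcription factors that are held in check by Hippo signalling. Anti-HA immunoprecipitation from whole lung lysate recovers RNA of every cell type in which the Cre line recombined. By flow cytometry the study saw no significant change in the abundance of PDGFRβ+ lung cells, at a later age than P8. Values are relative to all reads of a library. A lower value can thus mean a smaller share of cells with that RNA or less of it per cell, which cannot be told apart. RNA of cells not marked by the Cre line was also present. The epithelial marker Sftpc had 338.1 to 381.0 RPKM in controls and 432.9 to 467.5 RPKM in iPCKO samples. A value can thus not be assigned to pericytes alone, and the part of such carry-over in any change was not tested.

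Neurotrophins are made as proneurotrophins and cleaved to mature dimers. Mature BDNF and neurotrophin-4, the product of Ntf5, bind TrkB, and neurotrophin-3 binds mainly TrkC. p75NTR is a member of the TNF receptor superfamily without kinase activity. It binds all mature neurotrophins and, together with sortilin, the proneurotrophins. The family is best known for the survival and growth of neurons, and p75NTR, TrkB and TrkC are also made by non-neuronal cells, including mural cells of blood vessels.

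Values are the authors' RPKM, in which reads of a gene are divided by its exon length and by the mapped reads of the library, and they therefore compare genes per length. The implied depth, read from the steps that single reads leave in low values, was 17.43 to 34.68 M reads in controls and 14.25 to 39.63 M in iPCKO samples. Yap1 fell from 12.4 ± 0.859 RPKM in controls to 5.61 ± 0.314 RPKM in iPCKO samples (SD, n = 3 each), and Wwtr1 had 60.4 ± 9.48 against 61.98 ± 1.63 RPKM. A value per gene does not separate deleted exons from exons that remain, so it is a partial check of the genotype. The defining pericyte gene Pdgfrb lay between 1369 and 1666 RPKM in controls and between 1193 and 1447 RPKM in iPCKO samples. The summed RPKM of 4 Y-linked genes was 35.0 in control 1 and 40.8 in control 3 but at most 0.0750 in the other 4 libraries. These transcripts were thus unevenly spread over the groups, and the fold changes of the tested genes are also given with their presence as a covariate, which rests the comparison on control 2. Neutrophil, leukocyte, platelet and macrophage markers were higher in all 3 iPCKO samples, as detailed at the end.

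Ngfr was low in control samples and had, per length, the second highest level of the family in iPCKO samples. It had 1.69, 1.26 and 1.03 RPKM in controls 1 to 3 and 7.98, 9.96 and 6.96 RPKM in iPCKO samples 1 to 3. The lowest iPCKO value was thus several times the highest control value, and control 2 lay between the other controls. The means were 1.33 ± 0.337 and 8.30 ± 1.52 RPKM (SD, n = 3), a ratio of 6.24. On the log2(RPKM + 0.1) scale the difference of the means was 2.57. Among the genes with a nonzero RPKM in a sample, Ngfr stood at the 28.9th to 32.8th percentile in controls and at the 57.9th to 67.6th in iPCKO samples. The values correspond to about 76 to 123 reads per control library and 342 to 1360 per iPCKO library.

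**Figure D1:**
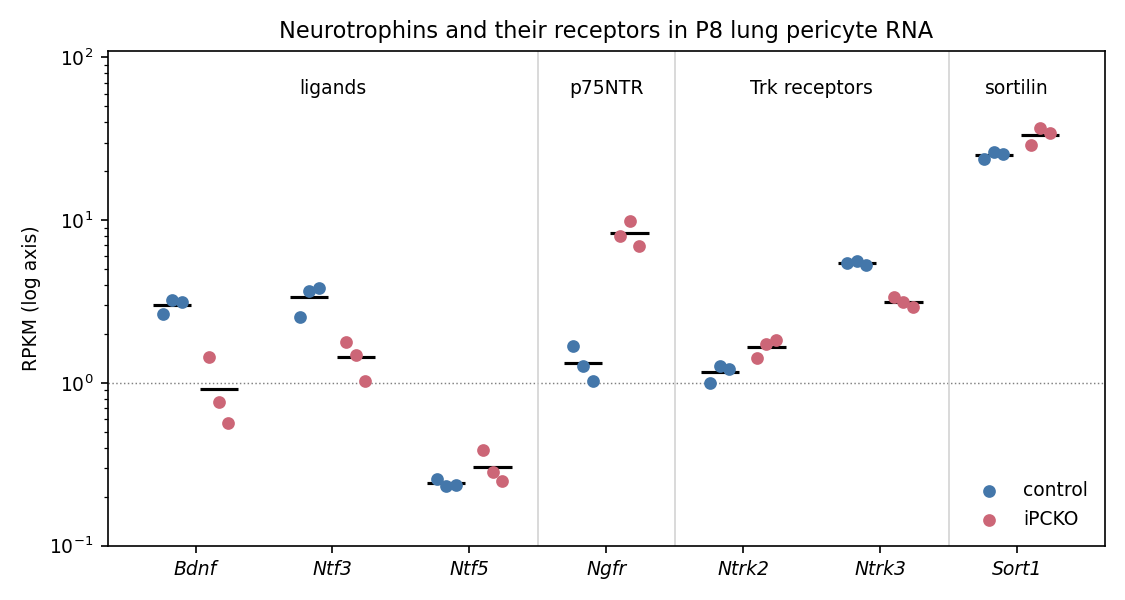
RPKM of 3 ligand genes, p75NTR (Ngfr), 2 Trk receptor genes and sortilin (Sort1) in each of 3 control and 3 iPCKO samples, on a log axis. Points are samples, black bars are group means and the dotted line marks 1 RPKM. The iPCKO points of Ngfr lie between 6.96 and 9.96 RPKM, above all control points, and those of Bdnf and Ntf3 lie below all control points.

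Ngfr spans chr11:95568818-95587735 on the minus strand (GRCm38) and has a single annotated transcript. Its promoter is shown because the gene chose the family and because YAP1 and TAZ act through TEAD factors, which bind a core written GGAATG, often beside AP-1 sites written TGANTCA. In the RefSeq windows for GRCm38.p6, from 250 bases before to 50 bases after each start, 4 of the 7 genes had entries, with 11 windows in all. Both motifs were searched on both strands, GGAATG also as CATTCC, and TGANTCA is its own reverse complement. Across all 32851 windows, 14.663% held the TEAD core and 7.808% the AP-1 motif. The Ngfr window holds neither. Printed from 5′ to 3′ are the 213 bases of it that lie before the GENCODE start (chr11:95587736-95587948, minus strand).
Ngfr: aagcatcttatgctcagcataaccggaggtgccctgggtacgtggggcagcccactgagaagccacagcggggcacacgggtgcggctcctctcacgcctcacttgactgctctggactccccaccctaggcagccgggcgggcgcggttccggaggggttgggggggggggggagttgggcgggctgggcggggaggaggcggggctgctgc
The Ngfr window was 71.7% G or C, higher than 93.1% of all windows, whose median was 52.7%. Absence of these letters from the window says nothing of sites elsewhere.

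The genes whose profiles over the 6 samples lay nearest to that of Ngfr were Susd5, Shc4, Dlk1, Frzb and Dmp1. Likeness was the Euclidean distance between log2(RPKM + 0.1) profiles, each centred on its own mean. The distances were 0.538, 0.594, 0.707, 0.727 and 0.763 in that order, against a median of 3.21 over all tested genes. Since most of each profile is the difference between groups, the list describes genes with a rise of similar size. Shc4, which encodes a Shc-family adaptor of receptor tyrosine kinases, had 1.12, 0.944 and 0.970 RPKM in controls and 4.52, 5.91 and 4.54 RPKM in iPCKO samples. Dlk1, a Delta-like membrane protein of immature cells, went from a mean of 3.78 to 15.6 RPKM. Frzb, a secreted Wnt antagonist, went from 0.247 to 1.58 RPKM, and Susd5 from 0.531 to 3.88 RPKM. Dmp1, a matrix protein of mineralised tissue, went from 0.261 to 1.66 RPKM. In each of the 5 the largest value was that of iPCKO 2, as for Ngfr, but the genes were picked on these same values. Susd5, Frzb and Dmp1 were under 1 RPKM in every control and were among the tested genes only through the iPCKO samples.

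To test the remaining genes, log2(RPKM + 0.1) was compared between groups with limma over the 12034 genes with at least 1 RPKM in at least 3 of 6 samples. Adjusted p-values (Benjamini-Hochberg) below 0.01 together with an absolute log2 fold change above 0.5, the cut-offs of the study's methods, count as passing. At these thresholds 6.79% of all tested genes passed, 4.11% as higher and 2.68% as lower in iPCKO samples. Ngfr is left out of the counts of tested genes, and Ntf5 was under the filter. Of the other 5 genes, 3 were lower and 2 did not pass. As the family was selected on this same contrast, nothing is read from that count. The adjusted p-values below place each gene in the fit over all genes and are not independent evidence.

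Bdnf was lower in iPCKO samples. It had 2.66, 3.25 and 3.13 RPKM in controls and 1.44, 0.763 and 0.564 RPKM in iPCKO samples. The groups did not overlap, and iPCKO 1 was the highest of the mutant samples. The mean went from 3.01 ± 0.311 to 0.921 ± 0.457 RPKM (SD, n = 3), or 30.6% of the control mean. In limma this was -1.70 on the log2 scale with a standard error of 0.283 and an adjusted p of 0.00499. The reads behind these values were about 326 to 676 per control library and 50 to 189 per iPCKO library. Bdnf met the filter through the 3 controls and iPCKO 1. The adjusted p-value did not pass in 9 of 19 alternative analyses and was 0.0624 with Y-linked transcripts as a covariate, where the fold change was -1.80. With iPCKO 1 as the only mutant sample the fold change was -1.01 (adjusted p = 0.0282).

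Bdnf lies at chr2:109674700-109727007 on the plus strand and is transcribed from many alternative starts, of which 7 had RefSeq windows. Values per gene sum over all of them, so the start that accounts for the fall cannot be read from these data. The antisense gene Gm45346 shares 896 bases of annotated exon with Bdnf and was not among the measured genes, and whether reads were counted by strand is not given in the sources used here. Of the 7 windows, 2 held a motif, and they are shown for that reason. In the stretches below, capitals mark the TEAD core in both and, in the first, also an AP-1 match.
Bdnf second start: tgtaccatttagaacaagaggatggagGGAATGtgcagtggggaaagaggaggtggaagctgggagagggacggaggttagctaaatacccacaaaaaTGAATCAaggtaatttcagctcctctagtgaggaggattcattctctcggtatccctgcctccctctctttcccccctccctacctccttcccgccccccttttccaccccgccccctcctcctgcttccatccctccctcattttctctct
Bdnf seventh start: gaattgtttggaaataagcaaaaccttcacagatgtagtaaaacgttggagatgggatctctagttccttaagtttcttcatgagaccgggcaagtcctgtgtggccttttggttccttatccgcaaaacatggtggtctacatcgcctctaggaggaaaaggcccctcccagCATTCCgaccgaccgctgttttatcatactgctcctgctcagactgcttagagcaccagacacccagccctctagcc
These are the 250 bases before each start, chr2:109676782-109677031 and chr2:109722671-109722920 on the plus strand. In the first, GGAATG begins 223 bases and TGAATCA 152 bases before the start. In the second, CATTCC begins 77 bases before the start, and its window holds another CATTCC that begins at base 19 after the start, beyond the printed stretch. No match of one motif overlapped a match of the other. No motif was found in the Ntrk2 window or in the 2 Ntf3 windows. A match is a description of the letters and not a bound site.

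Ntf3, which encodes neurotrophin-3, was also lower. It had 2.52, 3.70 and 3.84 RPKM in controls and 1.79, 1.49 and 1.03 RPKM in iPCKO samples. No mutant sample reached the lowest control, although control 1 and iPCKO 1 were close. The mean went from 3.35 ± 0.721 to 1.43 ± 0.380 RPKM, or 42.8% of the control mean. In limma this was -1.18 on the log2 scale with a standard error of 0.227 and an adjusted p of 0.00955. This adjusted p-value lies just under the threshold and did not pass in 12 of 20 alternative analyses, among them the replicate block (0.0159) and the covariate for Y-linked transcripts (0.0761, fold change -1.34). The direction was the same in all 20. Ntf3 rests on about 71 to 190 reads per control library and 21 to 84 per iPCKO library, and it lies at chr6:126101412-126166910 on the minus strand.

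Ntf5, which encodes neurotrophin-4, was scarce in both groups. Ntf5 (chr7:45413695-45417179, plus strand) had 0.259, 0.234 and 0.235 RPKM in controls and 0.385, 0.283 and 0.250 RPKM in iPCKO samples. The groups overlapped, and no sample reached 1 RPKM, so the gene was not tested. These values rest on 7 to 22 reads per library.

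Bdnf, Ntf3 and Ntf5 together had 5.44, 7.18 and 7.21 RPKM in controls and 3.61, 2.53 and 1.85 RPKM in iPCKO samples. The mean sum went from 6.61 ± 1.01 to 2.66 ± 0.888 RPKM. Bdnf made up 45.9% of this sum on average in controls and 33.5% in iPCKO samples, without overlap. The share of Ntf3 was 50.4% against 54.7% and overlapped between the groups. Ntf5, whose RPKM overlapped between the groups, made up 3.76% of the control sum and 11.8% of the mutant sum.

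**Figure D2:**
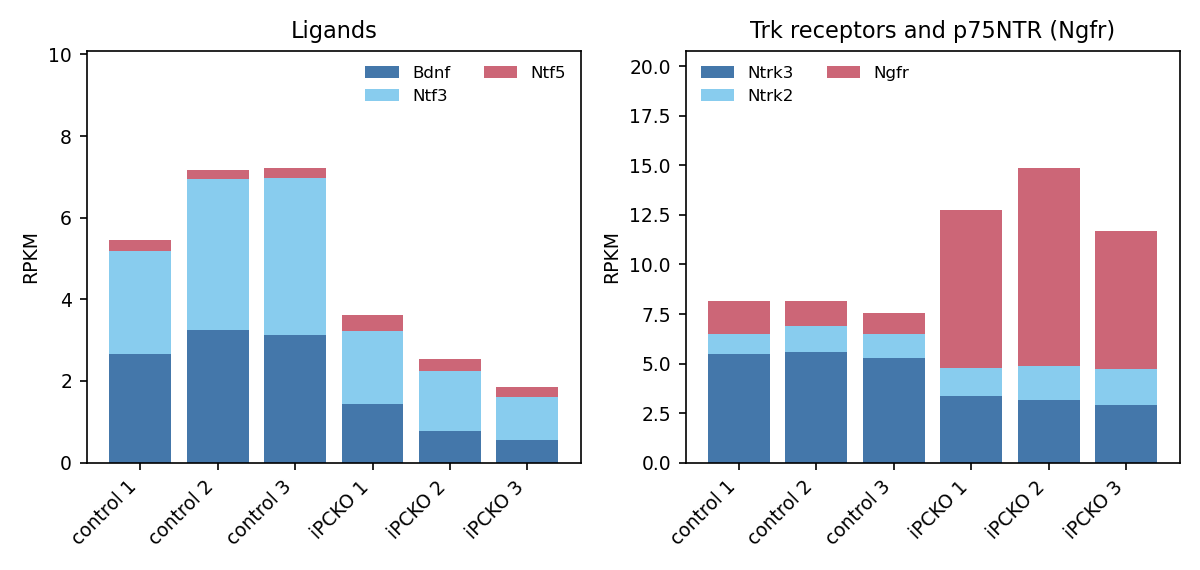
Stacked RPKM of Bdnf, Ntf3 and Ntf5 (left) and of Ntrk2 and Ntrk3 with Ngfr (right) in each sample, with bars starting at 0. The ligand sum is between 5.44 and 7.21 RPKM in controls and between 1.85 and 3.61 RPKM in iPCKO samples, while Ngfr is the largest segment on the right in iPCKO samples only.

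Among the Trk receptors, Ntrk3 fell and Ntrk2 did not pass the test. Ntrk3 (chr7:78175959-78738012, minus strand) had 5.48, 5.60 and 5.28 RPKM in controls and 3.36, 3.16 and 2.92 RPKM in iPCKO samples. The spread within each group was small and the groups were well apart. The mean went from 5.45 ± 0.163 to 3.15 ± 0.222 RPKM, or 57.7% of the control mean. In limma this was -0.78 on the log2 scale with a standard error of 0.10 and an adjusted p of 0.00143. The call held in 16 of 20 alternative analyses and was lost when values were scaled to Pdgfrb (-0.58, adjusted p = 0.0237) or Y-linked transcripts were a covariate (-0.81, adjusted p = 0.0327). It was also lost with iPCKO 1 as the only mutant sample (-0.68, adjusted p = 0.0393) and with control 2 as the only control (-0.81, adjusted p = 0.0686).

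Ntrk2 (chr13:58806569-59133970, plus strand) had 0.992, 1.27 and 1.22 RPKM in controls and 1.43, 1.73 and 1.83 RPKM in iPCKO samples. Every mutant value was above every control value, but by little. The means were 1.16 ± 0.148 and 1.66 ± 0.207 RPKM, and the difference in limma, 0.48 on the log2 scale with a standard error of 0.171 and an adjusted p of 0.0955, did not pass. It did not pass in any of 19 alternative analyses and was 0.36 with Y-linked transcripts as a covariate. Values per gene do not separate full-length Trk receptors from truncated forms without a kinase domain, which both Ntrk2 and Ntrk3 are known to make.

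Sort1 had the highest RPKM of the 7 genes in every sample. It had 23.8, 26.1 and 25.6 RPKM in controls and 29.0, 37.1 and 34.4 RPKM in iPCKO samples. The groups did not overlap, with iPCKO 1 nearest to the controls. The means were 25.2 ± 1.23 and 33.5 ± 4.12 RPKM, and the difference in limma, 0.41 on the log2 scale with a standard error of 0.107 and an adjusted p of 0.0356, passed neither threshold. Both thresholds were passed only without iPCKO 1 (0.51, adjusted p = 0.00958) among 20 alternative analyses. With iPCKO 1 as the only mutant sample the difference was 0.21 (adjusted p = 0.460), and with Y-linked transcripts as a covariate 0.35 (adjusted p = 0.325). Sort1 lies at chr3:108284082-108361511 on the plus strand, and the antisense gene Gm12523, which was not measured, shares 338 bases of its exons.

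The order of RPKM, a level per length, within the family differed between the groups. In controls it was Sort1, Ntrk3, Ntf3, Bdnf, Ngfr, Ntrk2 and Ntf5, from high to low. The ranges of Ntf3 and Bdnf overlapped, as did those of Ngfr and Ntrk2, and the other neighbours did not overlap. In iPCKO samples the order was Sort1, Ngfr, Ntrk3, Ntrk2, Ntf3, Bdnf and Ntf5. There the ranges of Ntrk2 and Ntf3 overlapped, and those of Ntf3 and Bdnf overlapped. Ntrk2 and Ntrk3 summed to 6.61 ± 0.224 RPKM in controls and 4.81 ± 0.0729 RPKM in iPCKO samples. Ngfr had 0.201 ± 0.0538 RPKM per RPKM of this sum in controls and 1.72 ± 0.289 in iPCKO samples. These ratios depend on the exon lengths used, and the annotated exons of all transcripts sum to 30170 bases for Ntrk3 and 19292 for Ntrk2 but 3446 for Ngfr. By estimated reads Ntrk3 stayed above Ngfr in every iPCKO library, for example with 2147 against 582 in iPCKO 1. Against Ntrk3 alone the ratio went from 0.243 to 2.64. Ntrk2 per RPKM of Ntrk3 went from 0.213 to 0.533, and Sort1 per RPKM of Ngfr from 19.9 to 4.10. None of these ratios overlapped between groups, and as Ngfr chose the family they carry no test.

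The wider system comprised 104 genes in 7 lists written by function, of which 75 were tested. The 7 family members are not in these lists. Of the 75, 8 were higher and 4 lower in iPCKO samples and 63 did not pass, beside 4.11% higher and 2.68% lower among all tested genes. The 8 include Serpini1 and Mmp9, which met the filter only through the iPCKO samples. Whether the lists differ from other genes was not tested. The median log2 fold change over the 75 was 0.05, with a median absolute value of 0.181 against 0.168 over all tested genes. With Y-linked transcripts as a covariate 4 of the 12 passed, namely Shc4, Serpini1, Pcsk6 and Tnfrsf11b, and over all genes 124 passed in place of 817.

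Downstream of the Trk receptors, 2 of 25 tested adaptors and effectors were higher and none lower. Shc4 rose from 1.01 ± 0.0937 to 4.99 ± 0.795 RPKM (2.19 on the log2 scale, adjusted p = 6.35e-05, limma), and it met the filter through control 1 and the 3 iPCKO samples. Sh2b2, which encodes the adaptor APS, rose from 1.85 to 3.18 RPKM (0.75, adjusted p = 0.00372, limma) and did not pass in 7 of 20 alternative analyses. The median over the list was -0.06. Among partners and adaptors of p75NTR, 1 of 13 tested was higher and 1 lower. Rtn4rl1, which encodes a Nogo receptor family member, rose from 18.0 to 27.9 RPKM (0.64, adjusted p = 0.00511, limma). Ndn, which encodes necdin, a MAGE-family protein that binds p75NTR, fell from 109.95 to 60.3 RPKM (-0.87, adjusted p = 0.00169, limma). These calls were lost in 8 and 4 of 20 alternative analyses. None of the 8 tested genes for cleavage of p75NTR passed. The most abundant of them, Ncstn, a subunit of gamma-secretase, had 35.7 RPKM in controls and 36.2 RPKM in iPCKO samples (0.03, adjusted p = 0.885, limma).

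In proneurotrophin processing 3 of 10 tested genes were higher and 1 lower, with a median of 0.37 that was not tested against other genes. Pcsk6, which encodes the proprotein convertase PACE4, had 6.54, 4.83 and 5.17 RPKM in controls and 1.68, 1.54 and 1.31 RPKM in iPCKO samples. It fell to 27.4% of the control mean (-1.80, adjusted p = 0.000186, limma) and its call was lost in 1 of 20 alternative analyses, with control 2 as the only control. Serpini1, which encodes neuroserpin, an inhibitor of tissue plasminogen activator rather than a protease, had 0.165, 0.229 and 0.209 RPKM in controls and 2.20, 3.69 and 2.17 RPKM in iPCKO samples (3.17, adjusted p = 0.000149, limma). Serpini1 and Mmp9 met the filter only through the 3 iPCKO samples, in which they were high. Nothing is therefore read from the count of higher genes or the median of this list. Plat, which encodes tissue plasminogen activator itself, rose from 81.6 to 126.2 RPKM (0.63, adjusted p = 0.00424, limma), a call lost in 9 of 20 alternative analyses. Mmp9, a matrix metalloproteinase also on the neutrophil list, had 0.645, 0.924 and 0.749 RPKM in controls and 3.19, 12.9 and 28.4 RPKM in iPCKO samples, in the order of their neutrophil markers (3.62, adjusted p = 0.00641, limma). The call was lost in 11 of 19 alternative analyses, and the part of neutrophil RNA in it was not tested.

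**Figure D3:**
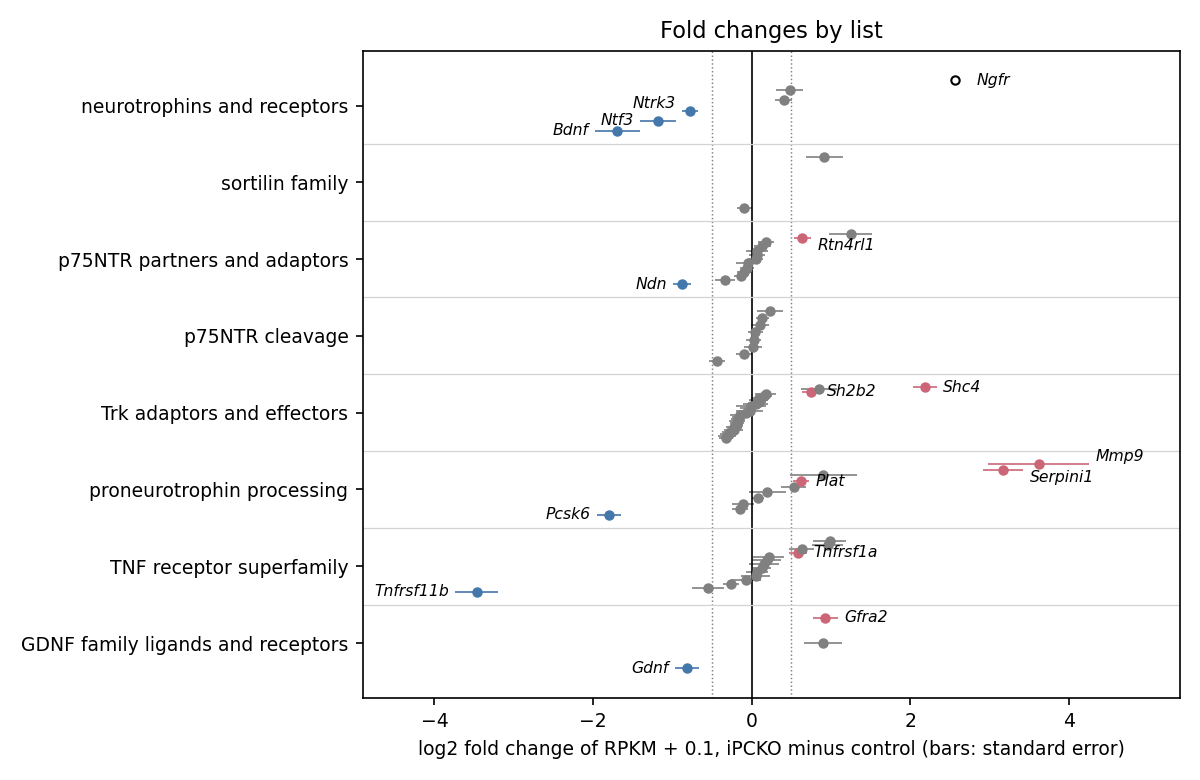
Log2 fold change of RPKM + 0.1, iPCKO minus control, for each gene of the neurotrophin lists above the filter, with bars for the standard error and dotted lines at -0.5 and 0.5. The open circle is Ngfr, shown without a test or error bar. Red points passed the thresholds as higher, blue points as lower and grey points did not pass. Most points lie near 0, and those farthest out are Mmp9, Serpini1, Ngfr and Shc4 to the right and Tnfrsf11b, Pcsk6 and Bdnf to the left.

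Among other members of the TNF receptor superfamily, to which p75NTR belongs, 1 of 14 tested was higher and 1 lower. Tnfrsf11b, which encodes osteoprotegerin, a secreted decoy receptor, had 9.61, 8.69 and 19.9 RPKM in controls and 0.955, 1.02 and 0.971 RPKM in iPCKO samples. It fell to 7.71% of the control mean (-3.47, adjusted p = 0.000136, limma) and passed in all 19 alternative analyses. Tnfrsf1a, which encodes TNF receptor 1, rose from 36.1 to 53.8 RPKM (0.58, adjusted p = 0.00929, limma) and did not pass in 10 of 20. In the related GDNF family, where only 3 of 9 genes were tested, Gfra2, the co-receptor for neurturin, rose from 16.0 to 30.1 RPKM (0.93, adjusted p = 0.00463, limma), and Gdnf fell from 1.78 to 0.969 RPKM (-0.81, adjusted p = 0.00850, limma). These calls were lost in 6 of 20 and in 13 of 19 alternative analyses. In the sortilin family Sorcs2 had 12.5 and 11.7 RPKM in controls and iPCKO samples (-0.09, adjusted p = 0.555, limma), and neither of the 2 tested relatives of Sort1 passed.

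Neurons and Schwann cells also express neurotrophin receptors, so their markers were read beside the family. The Schwann cell markers summed to 20.5 to 24.2 RPKM in controls and 22.4 to 23.8 RPKM in iPCKO samples, and none of the 5 tested passed. Sox10, a defining factor of these cells, was at most 0.0558 RPKM in any sample, and Foxd3 was listed at 0 in 4 of 6 samples. The neuron markers summed to 2.31 to 3.43 RPKM in controls and 1.48 to 2.41 RPKM in iPCKO samples, and Snap25 and Th were listed at 0 in all 6. Most of that sum was Stmn2, which had 2.90, 1.84 and 1.94 RPKM in controls and 0.868, 0.822 and 1.22 RPKM in iPCKO samples (-1.11, adjusted p = 0.0115, limma) and did not pass. Tubb3, which was under the filter, had 0.163 to 0.276 RPKM in controls and 0.202 to 0.976 RPKM in iPCKO samples. Pericyte markers, by their mean log2(RPKM + 0.1), were 6.74 in controls and 6.86 in iPCKO samples and overlapped. Within that list 3 of 10 were higher and 2 lower, beside 4.11% higher and 2.68% lower among all tested genes. On the log2 scale Cspg4 rose by 1.06, Kcnj8 by 1.03 and Abcc9 by 1.15, while Notch3 changed by -0.94 and Rgs5 by -1.15 (limma). The mean of the list thus averages changes in both directions. Whether the share of pericyte RNA differed between the groups was not tested. Scaled to 1000 RPKM of Pdgfrb in the same sample, Ngfr went from 0.866 to 6.21, Bdnf from 1.99 to 0.674, Ntf3 from 2.22 to 1.06, Ntrk3 from 3.58 to 2.36, Ntrk2 from 0.768 to 1.26 and Sort1 from 16.6 to 25.3. None of these overlapped between the groups, but the share of all genes without overlap was not counted. The scaling also moved the median log2 fold change of all genes by 0.195.

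Blood cell markers moved with the groups. Neutrophil markers summed to 87.1 to 129.2 RPKM in controls and 448.9 to 4949 RPKM in iPCKO samples, and 6 of 10 were higher. Their mean log2(RPKM + 0.1) lay between 1.79 and 2.45 in controls and reached 3.77, 5.65 and 6.95 in iPCKO 1, 2 and 3. Of the leukocyte markers 8 of 10, of the tested platelet markers 5 of 6 and of the macrophage markers 2 of 9 were higher, beside 4.11% of all tested genes. Among the markers called higher, Gp9, Treml1, Marco and Mmp9 met the filter only through the iPCKO samples. With 3 samples against 3 the exact permutation test of the neutrophil, leukocyte, platelet and macrophage lists gave its smallest possible two-sided p of 0.1 for each (0.217 after Benjamini-Hochberg adjustment over 13 lists). Bdnf, Ntf3 and Ntrk3 were highest in iPCKO 1 and lowest in iPCKO 3, the reverse of the neutrophil order, and the part of blood cell RNA in their fall was not tested. In iPCKO 1, whose neutrophil markers were the lowest of the mutants but above those of every control, each of the 3 was below every control. Ngfr was highest in iPCKO 2 and lowest in iPCKO 3, at 6.96 RPKM, and the part of blood cell RNA in its rise was not tested. Of the remaining lists, epithelial and mesothelial markers were also higher without overlap, by 0.30 and 0.44 in mean log2(RPKM + 0.1), and smooth muscle, fibroblast, endothelial and erythrocyte markers overlapped between the groups.

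**Figure D4:**
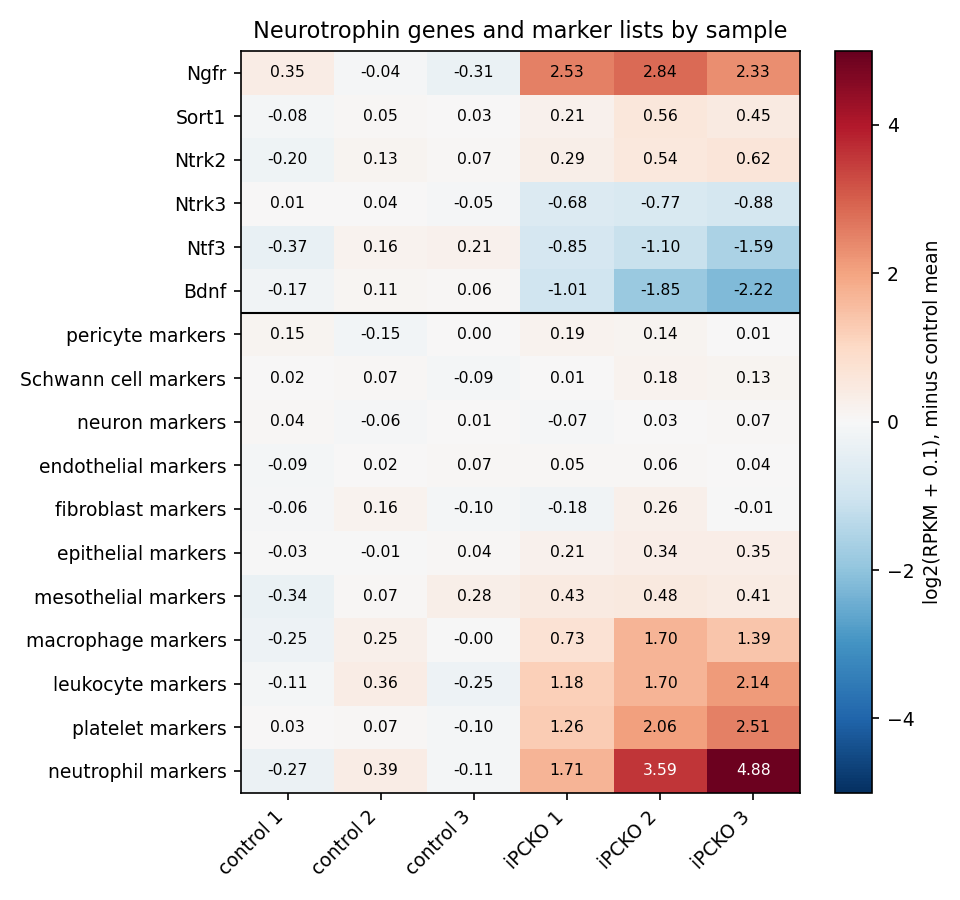
Log2(RPKM + 0.1) of 6 neurotrophin genes (upper block) and mean of 11 marker lists (lower block) in each sample, minus the control mean, with values printed in the cells and red for higher. Ngfr is raised by 2.33 to 2.84 in the iPCKO samples, Bdnf falls by 1.01 to 2.22, Schwann cell and neuron markers stay within 0.18 of the control mean, and neutrophil markers rise by 1.71 to 4.88.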

How the data were processed

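RNA bound to HA-tagged ribosomes of P8 lung was sequenced from 3 control and 3 iPCKO samples, grouped by their labels. Paired-end reads of stranded libraries were aligned by the authors to mm10 (GRCm38) using TopHat and assigned to genes using HTSeq 0.6.1, and the deposited values are RPKM for each Ensembl gene. The exon lengths used and the strand setting of the counting are not given in the sources used here. RPKM hides the reads behind a value, so reads were estimated from the steps of low values, of which 75.0% to 77.8% lay within 0.02 reads of a whole number.

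RPKM values of at least 1 in at least 3 samples were tested on log2(RPKM + 0.1) with limma 3.58.1 (lmFit, eBayes with an intensity trend, Benjamini-Hochberg) in R 4.3.3. The value of 0.1 understates changes of low genes. Symbols of 21375 genes came from GENCODE M21. The mean log2(RPKM + 0.1) of each marker list per sample was compared by exact permutation in Python 3.11.15 (numpy 2.4.6, pandas 2.3.3, scipy 1.17.1, matplotlib 3.10.9). The labels do not say that samples came from separate animals. Control 2 had almost none of the Y-linked transcripts of controls 1 and 3, so it did not come from the same animals as those. For the other samples this is not known, so p-values measure the spread between these samples, which may in part be technical. On simulated data of 12034 genes with 200 changed, log2 changes of 1 were recovered for 58% and log2 changes of 2 for 94.5%. The family and gene lists were chosen with earlier results of these data known. Named genes were all 7 members, the deleted genes, every listed pathway gene past the thresholds, the most abundant gene of each list without one, markers, and the 5 profiles nearest to Ngfr. Alternatives covered the added value, filter, scaling, replicate block, variance trend, weights, threshold and omitted samples.

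Whether replicate numbers pair the samples was not settled. The deviations of same-numbered samples correlated with r = 0.24, 0.09 and 0.02, and those of differently numbered samples with r between -0.30 and 0.27. As the deviations are taken from means of only 3 samples, these values cannot decide it.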

Additional observations from a re-analysis of the deposited data

How the results depend on the processing

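Among the tested family members, the 12 passing pathway genes and the other pathway, deleted and profile-matched genes named, only 3 near 0 changed direction in any alternative. On the log2 scale Sorcs2 was 0.00835 with sample weights, 0.0148 with the covariate and also without control 1 and 3, and 0.106 scaled to Pdgfrb. Ncstn was -0.00748 with quantile normalization, -0.0153 with sample weights, -0.0267 with the covariate and also without control 1 and 3, and -0.0488 to 0.0741 with 1 sample left out. Wwtr1 was -0.000123 with quantile normalization and -0.0293 to 0.173 with 1 sample left out. In place of 817 genes and 12 neurotrophin pathway genes, 1313 and 19 passed at an adjusted p-value of 0.05, and 1590 and 20 with sample weights. With a filter of 1 RPKM in all 6 samples 7 pathway genes passed. Leaving out 1 sample gave 382 to 899 genes and 5 to 12 pathway genes, with 382 without control 3, 414 without iPCKO 2 and 499 without iPCKO 3. The omission of 2 samples, the covariate and the scaling to Pdgfrb that follow were chosen after seeing the data. Leaving out iPCKO 2 and 3 gave 180 and 3, Y-linked transcripts as a covariate gave 124 and 4, and leaving out control 1 and 3 gave 31 and 1, with the lone sample of a group assumed to vary like the other group. Scaling to Pdgfrb gave 971 genes, of which 81.3% were higher against 60.6% without scaling, and moved the median of all genes by 0.195. When the labels' replicate numbers entered as a replicate block, 922 genes and 14 pathway genes passed, and among the 7 genes the call of Ntf3 was lost (adjusted p = 0.0159, limma). For the untested Ntf5 the fit without a filter gave 0.23 (adjusted p = 0.502, limma). Depth limits Ntf5, which rests on 7 to 22 reads per library. The causes of these changes were not tested.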

Other observations

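Some genes of the neurotrophin lists had log2 fold changes above 0.5 that did not pass the thresholds. The 4 given here were named after their values were seen and by no set rule. Other genes of these lists met the same description, some with smaller adjusted p-values. Sorl1, a relative of sortilin, had 6.33, 8.38 and 7.87 RPKM in controls and 9.94, 14.2 and 20.3 RPKM in iPCKO samples (0.92, adjusted p = 0.0306, limma). Its iPCKO values stood in the order of the neutrophil markers. Rtn4rl2, a relative of Rtn4rl1, had 1.31, 0.685 and 0.593 RPKM in controls and 2.07, 2.33 and 1.86 RPKM in iPCKO samples (1.25, adjusted p = 0.0154, limma). Nrtn, which encodes neurturin, the ligand that binds GFRA2, had 5.65, 4.15 and 3.47 RPKM in controls and 11.5, 7.74 and 6.17 RPKM in iPCKO samples (0.90, adjusted p = 0.0370, limma). Tnfrsf21, which encodes death receptor 6, had 131.0, 94.1 and 121.8 RPKM in controls and 208.8, 172.7 and 154.8 RPKM in iPCKO samples (0.63, adjusted p = 0.0295, limma). In each of these 4 genes every iPCKO value was above every control value. The share of all genes that separate in this way was not counted, so nothing is read from it.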
